A study of Mus musculus with 25 samples.

Results

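The cytosolic ribosomal protein genes encode the protein parts of the ribosome, and were followed through all 4 deposited tables of a study of mouse pancreatic islets. Members were chosen by symbol alone: Rpl or Rps followed by a digit, or Rpsa, Rplp0, Rplp1 and Rplp2. Symbols containing -ps and the S6 kinases were left out. Of 18167 genes named in at least 1 table, 87 were members, and 83 of them stood in all 4 tables. The high-fat diet (HFD) table and the WT table held 84 members each, with 87 in the PBS table and 86 in the db table. Rpl32l, Rpl39l, Rpl3l and Rps27rt were the 4 members outside at least 1 table. The rule also admits Rps19bp1, which encodes a regulator that binds the small subunit protein RPS19 and is not itself a ribosomal protein. Rpl32l and Rpl37rt are admitted too, and are typed as pseudogenes in the GENCODE vM21 annotation.

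A ribosome joins a small subunit (Rps proteins), which reads the messenger RNA, to a large subunit (Rpl proteins), which makes the peptide bond. Subunit assembly needs most of the proteins in equal numbers. Ribosomal protein messenger RNAs usually begin with a C followed by an unbroken run of pyrimidines. Through this run mTOR signalling sets how well they are translated, so their RNA level is only part of their control. Beta cells make insulin at a high rate and depend on this machinery.

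Messenger RNA of islets was sequenced, with each sample pooled from at least 3 mice. On HFD for 3 months there were flox/flox mice and BcBKO mice, in which a gene is ablated with Pdx1-cre (2 libraries each). Pdx1 is active in progenitors of the pancreas as well as in beta cells. The series title names BAF60C, whose gene is Smarcd3, and the labels themselves do not spell out the floxed gene. Further groups were WT (5 libraries), CTR_PBS, KO_PBS and KO_REG3B-Fc (2 each), and db_GFP and db_REG3B (2 each). KO_PBS and KO_REG3B-Fc share the label KO, and CTR_PBS and KO_PBS share PBS. Strain, age, dose and route are not given in the labels used here, and the chow groups were not analysed here. The labels do not say whether replicates came from separate isolations, so p-values measure the spread between these samples, which may be technical.

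Of 87 members, 85 had a coding sequence that could be compared with the transcripts of all other genes in the GENCODE vM21 annotation of GRCm38. In 81 of them at least 1 stretch of 50 bases recurred unchanged in another gene, and in 31 every such stretch did. The median member shared 91.3% of its 50-base stretches. The closest copy was most often a processed pseudogene, a copy of a messenger RNA put back into the genome. A read pair from such a stretch cannot be placed from its letters alone, and how the authors placed these reads is not given in the sources used here. Values of members with full-length copies are therefore uncertain. Retrogene copies of Rps27 and Rpl37 carry rows of their own in the tables, and the coding sequences without the stop codon are shown because later values divide between copies. Rps27 (chr3:90212522-90213651, minus strand, GRCm38) encodes a zinc finger protein of the small subunit, and its 252 coding bases are identical to those of the retrogene Rps27rt (chr9:114982366-114982739, minus strand):
Rps27: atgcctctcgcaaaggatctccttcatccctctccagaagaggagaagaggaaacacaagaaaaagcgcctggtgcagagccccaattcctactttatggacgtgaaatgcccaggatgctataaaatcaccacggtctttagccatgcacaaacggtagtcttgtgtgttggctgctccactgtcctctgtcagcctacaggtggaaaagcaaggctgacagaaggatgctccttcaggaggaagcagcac
Rpl37 (chr15:5116645-5119140, plus strand), which encodes a large subunit protein, and the retrogene Rpl37rt (chr5:115102923-115110268, minus strand) differ at 1 of 291 bases, G249A: Rpl37 has the first base, the matching stretch of Rpl37rt the second, and positions count from 1 at the first base of the start codon. That base is in capitals:
Rpl37: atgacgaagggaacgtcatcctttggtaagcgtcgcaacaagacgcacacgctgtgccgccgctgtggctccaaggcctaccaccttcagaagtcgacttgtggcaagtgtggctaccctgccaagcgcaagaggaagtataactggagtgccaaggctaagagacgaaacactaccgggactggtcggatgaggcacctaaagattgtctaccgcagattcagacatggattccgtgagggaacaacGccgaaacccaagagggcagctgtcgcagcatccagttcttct
Rpl37rt: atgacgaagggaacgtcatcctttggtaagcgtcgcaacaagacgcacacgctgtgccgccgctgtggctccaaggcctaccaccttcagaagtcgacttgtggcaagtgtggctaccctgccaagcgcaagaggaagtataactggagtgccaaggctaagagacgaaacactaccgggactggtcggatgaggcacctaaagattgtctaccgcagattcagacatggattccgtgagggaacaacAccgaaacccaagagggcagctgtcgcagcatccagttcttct

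Promoter windows in RefSeq GRCm38.p6, from 250 bases before to 50 after a start, matched 67 members. A run of at least 8 pyrimidines opening with C, within 20 bases of a listed start, was present in 32 of them (47.8%), against 15.7% of all 27025 genes with a window. The letters CTTTC in the same stretch occurred in 29.9% of members and 7.12% of all genes. Over the whole 300 bases and on both strands, CCGGAAG (the core bound by GABP) occurred in 38.8% against 9.93%, AAGATGG (the YY1 letters) in 14.9% against 7.28%, GGGCGGG (the SP1 letters) in 46.3% against 27.9% and TATAAA in 11.9% against 15.7%. The pyrimidine run, read on the gene's own strand, was found in 32 members and GGGCGGG in 31, and CTTTC can lie within the run. The patterns differ in length, strands and window, so their shares do not rank them against one another. Windows of 60 bases before to 30 after the start follow, with capitals only for a run within 20 bases of the listed start. Runs farther off, in the Rpl13a and Rps16 windows, stay in lower case. Of the members shown, 3 hold a run in capitals and 1, Rps16, holds none that near its listed start. These are Rps6 (chr4:86857338-86857427, minus strand), the substrate of S6 kinase, Rps12 (chr10:23787180-23787269, minus strand), Rpl13a (chr7:45128716-45128805, minus strand) and Rps16 (chr7:28350629-28350718, plus strand):
Rps6: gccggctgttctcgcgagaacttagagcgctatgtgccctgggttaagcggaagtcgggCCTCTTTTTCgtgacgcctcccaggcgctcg
Rps12: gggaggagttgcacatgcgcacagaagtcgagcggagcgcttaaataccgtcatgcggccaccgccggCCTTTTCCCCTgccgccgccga
Rpl13a: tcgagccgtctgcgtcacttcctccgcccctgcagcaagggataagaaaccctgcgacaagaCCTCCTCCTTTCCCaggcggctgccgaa
Rps16: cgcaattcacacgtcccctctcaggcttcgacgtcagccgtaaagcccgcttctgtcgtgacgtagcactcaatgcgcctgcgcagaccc

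Levels are FPKM, the fragments of a gene divided by its transcript length and by library size, and the number of reads behind them is unknown. Smarcd3 was low everywhere: 2.57 and 2.55 FPKM in flox/flox, then 3.11 and 2.40 FPKM in BcBKO, 1.03 and 1.15 FPKM in CTR_PBS, and 0.75 and 1.09 FPKM in KO_PBS. A gene's FPKM in whole islets cannot show an exon's deletion, so groups are called by their labels. Beta cell marker genes took 28.6 to 71.7% of summed FPKM, which is the islet's defining content, and acinar (digestive enzyme) genes took 0.0707 to 54.2%. Several libraries stood apart. In the HFD groups replicate 1 differed from replicate 2, with 8 and 9 of 84 members over 2-fold apart (9.52 and 10.7%), beside 11.3 and 4.63% of other genes with a mean of at least 100 FPKM. WT replicate 4 differed from WT replicate 1 in 14 members, and WT replicate 5 in 11 (16.7 and 13.1%), beside 22.9 and 19.0% of other genes at that level, so other genes divided between these libraries as well. Members were counted from the median ratio of members and other genes from that of all genes. At most 1 member was that far apart between replicates of a group in the PBS and db tables.

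Most members were abundant in every library. The median member measured 250.2 FPKM in the lowest library (WT replicate 5) and 673 FPKM in the highest (db_GFP replicate 2), with 70 to 76 members at or above 100 FPKM in each library. Rpl41, which encodes the smallest ribosomal protein, was the highest member in 14 of 19 libraries and Rpl10, a late-joining large subunit protein, in the other 5, all of the PBS table. Rpl41 measured 2312 and 2454 FPKM in db_GFP, 1712, 1587, 1606, 1610.5 and 910.4 FPKM in WT and 1076 and 1119 FPKM in CTR_PBS. The 5 highest members of a library held 14.1 to 18.2% of its members' sum, so no few genes made up the total. At the low end, Rpl39l measured at most 0.06 FPKM in the PBS libraries, and Rpl3l, a form known from muscle, at most 0.07 FPKM in the PBS and db libraries, and both were listed at 0 in most of them. There were 84 members in each table that passed the filter of at least 1 FPKM in at least 2 libraries.

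The first question was how much of the islet's messenger RNA the ribosomal protein genes took. Their share of summed FPKM was 2.38 and 2.61% in flox/flox on HFD, with 2.73 and 2.64% in BcBKO. In WT it was 3.09, 3.13, 2.98, 3.15 and 2.23%. It was 2.32 and 2.27% in CTR_PBS, against 2.77 and 2.64% in KO_PBS, with 2.58 and 2.69% in KO_REG3B-Fc. In db_GFP it was 6.29 and 6.51% and in db_REG3B 4.02 and 3.87%. Both KO_PBS libraries lay above both CTR_PBS libraries, and both db_GFP libraries lay above both db_REG3B libraries, while KO_REG3B-Fc overlapped KO_PBS. In means ± SD (n = 2 each) the share was 3.95 ± 0.107% against 6.40 ± 0.156% for db_REG3B against db_GFP, and 2.70 ± 0.0952% against 2.29 ± 0.0322% for KO_PBS against CTR_PBS. On HFD it was 2.68 ± 0.0671% against 2.50 ± 0.159%. With 2 libraries against 2 an exact permutation test (two-sided) cannot go below p = 0.333, the value found in every comparison of this share but KO_REG3B-Fc against KO_PBS, where it was 0.667. In bulk islets, fewer cells of a type and less RNA per cell cannot be told apart.

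Insulin and acinar genes filled much of the denominator, and their shares moved with the same groups. Insulin genes took 57.5 and 58.4% of FPKM in CTR_PBS, against 38.9 and 38.2% in KO_PBS, with 58.1 and 57.7% in KO_REG3B-Fc. Acinar genes took 20.1 and 19.9%, 40.9 and 42.0% and 17.3 and 17.5% of FPKM in the same order. In the db table insulin took 34.6 and 35.0% in db_GFP and 54.7 and 55.0% in db_REG3B. With insulin, acinar and REG genes left out of the denominator, the share was 10.6 and 10.7% in CTR_PBS, against 14.6 and 14.1% in KO_PBS, with 10.6 and 11.0% in KO_REG3B-Fc. KO_REG3B-Fc then lay beside CTR_PBS, where on the full denominator it lay beside KO_PBS. In the db table this share was 9.64 and 10.0% against 8.90 and 8.61%, a ratio of 0.890 in place of 0.617. On HFD it was 8.13 and 8.20% against 8.47 and 8.24%. In WT it was 13.7, 16.7, 16.4, 9.36 and 8.25%, so the 5 libraries, close on the full denominator except replicate 5, spread widely on this one.

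**Figure D1:**
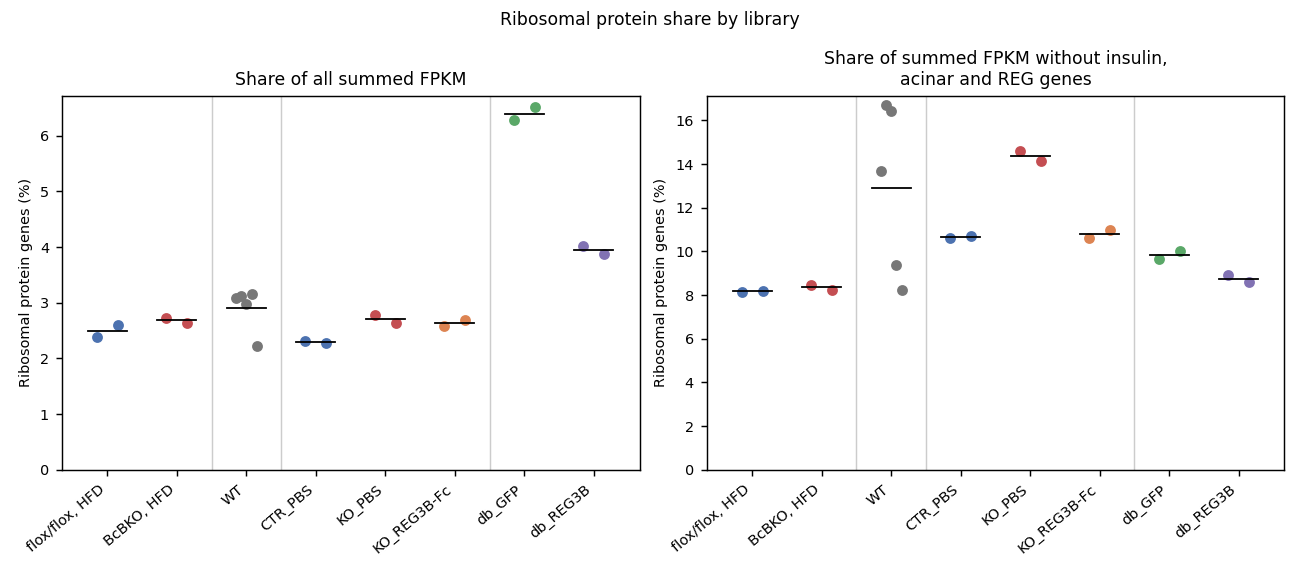
Share of ribosomal protein genes in percent (y axis) of all summed FPKM (left) and of summed FPKM without insulin, acinar and REG genes (right), 1 point per library by group (x axis). Black lines are group means and grey lines divide separately normalized tables. On the left db_GFP is highest, and on the right KO_PBS lies above both other groups of its table.

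The large subunit genes, which were more in number, summed to more FPKM than the small subunit genes in every library. Their ratio was 1.36 and 1.31 in flox/flox, 1.35 and 1.32 in BcBKO, 1.44 and 1.44 in CTR_PBS, then 1.42 and 1.42 in KO_PBS, then 1.44 and 1.43 in KO_REG3B-Fc, 1.35 and 1.37 in db_GFP and 1.38 and 1.36 in db_REG3B. Within a table the groups thus differed by little, and WT held both the lowest and the highest value (1.44, 1.43, 1.47, 1.25 and 1.54). Large and small members numbered 50 and 34 on HFD, 51 and 33 in WT, 53 and 34 in the PBS table and 52 and 34 in the db table. The ratio of sums lay below the ratio of these numbers in every library, so the small subunit rows as counted had the higher mean FPKM. In WT replicate 5 the margin was slight. The large subunit count includes low-level rows such as Rpl32l, Rpl3l and Rpl39l, and the order without them was not checked. In the tests below, 47 of 51 large and 32 of 33 small subunit genes (Rps19bp1 among them) were called lower in db_REG3B against db_GFP, beside 30.8% of all genes, with medians of -0.36 and -0.39 on the log2 scale. In KO_PBS against CTR_PBS 16 large and 18 small subunit genes were called higher and 3 and 5 lower as deposited, beside 8.66 and 81.5% of all genes. After median scaling 49 and 32 were called higher, beside 24.6%.

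Single members with near-identical copies divided libraries of the same group. Rps27 and Rps27rt measured 329.6 and 1015 FPKM in flox/flox replicate 1, then 97.7 and 1354 FPKM in BcBKO replicate 1. In replicate 2 they measured 1081 and 10.7 FPKM in flox/flox, then 1291 and 14.3 FPKM in BcBKO. The 2 genes thus changed places between replicate numbers and not between genotypes, with Rps27rt holding 75.5 and 93.3% of the pair's sum in replicate 1 and 0.979 and 1.10% in replicate 2. The sums were closer, at 1344 and 1452 FPKM in replicate 1 and 1091 and 1305 FPKM in replicate 2. Outside the HFD table Rps27rt measured at most 1.94 FPKM, or was listed at 0, while Rps27 measured 876 to 1886 FPKM in the PBS and db tables. The coding sequences of the pair are the same letter for letter, as printed above.

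Rpl37rt measured 929.9 and 193 FPKM in flox/flox, with 976 and 197 FPKM in BcBKO, again by replicate number. It measured 1.59, 0.730, 1.44, 119 and 2.41 FPKM in WT and at most 3.14 FPKM in the PBS and db tables, so the HFD libraries and WT replicate 4 stood apart from the others. Rpl37 itself varied far less, at 92.8 to 129 FPKM on HFD and 184, 185, 204, 216 and 108 FPKM in WT. Other members divided the HFD libraries by number too. Rps13, a small subunit protein, measured 69.6 and 289.8 FPKM in flox/flox, with 73.7 and 315 FPKM in BcBKO. Rpl27 measured 93.3 and 18.6 FPKM, against 106 and 19.7 FPKM in the same groups, high where Rps13 was low.

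The same kind of division ran through the tables, which were normalized separately. Rps6 measured 369.6 and 445 FPKM in flox/flox, 401 and 445 FPKM in BcBKO and 15.2, 11.6, 11.9, 480.4 and 19.1 FPKM in WT, against 10.3 to 13.2 FPKM in the PBS table and 13.5 to 22.3 FPKM in the db table. Rps15a, another small subunit protein, measured 231 to 267 FPKM on HFD, 17.3, 19.6, 17.2, 334 and 13.9 FPKM in WT and 14.9 to 24.0 FPKM in the PBS and db tables. Both genes were high in the HFD libraries and WT replicate 4 and low in all others. Rpl5, which with Rpl11 and 5S RNA forms a particle of the large subunit that also binds MDM2, went the opposite way: 16.6 to 21.1 FPKM on HFD, 369.8, 384, 370.3, 3.37 and 248 FPKM in WT and 331 to 536 FPKM in the PBS and db tables. Rpl10 measured 121 to 199.9 FPKM on HFD, 1096, 1077, 1039, 65.0 and 827 FPKM in WT and 1185 to 1749.6 FPKM elsewhere. Rps12 and Rpl12 were low on HFD alone, at 16.1 to 36.5 and 11.4 to 26.9 FPKM, with 547 and 575 FPKM in WT replicate 4. Rpl31 was lowest in WT replicate 4, at 12.3 FPKM against 235 FPKM in replicate 3. WT replicate 4 was thus high or low in the same direction as the HFD libraries for Rps6, Rps15a, Rpl5, Rpl10 and Rpl37rt, at values outside their range, and not for Rps12, Rpl12 and Rpl31.

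**Figure D2:**
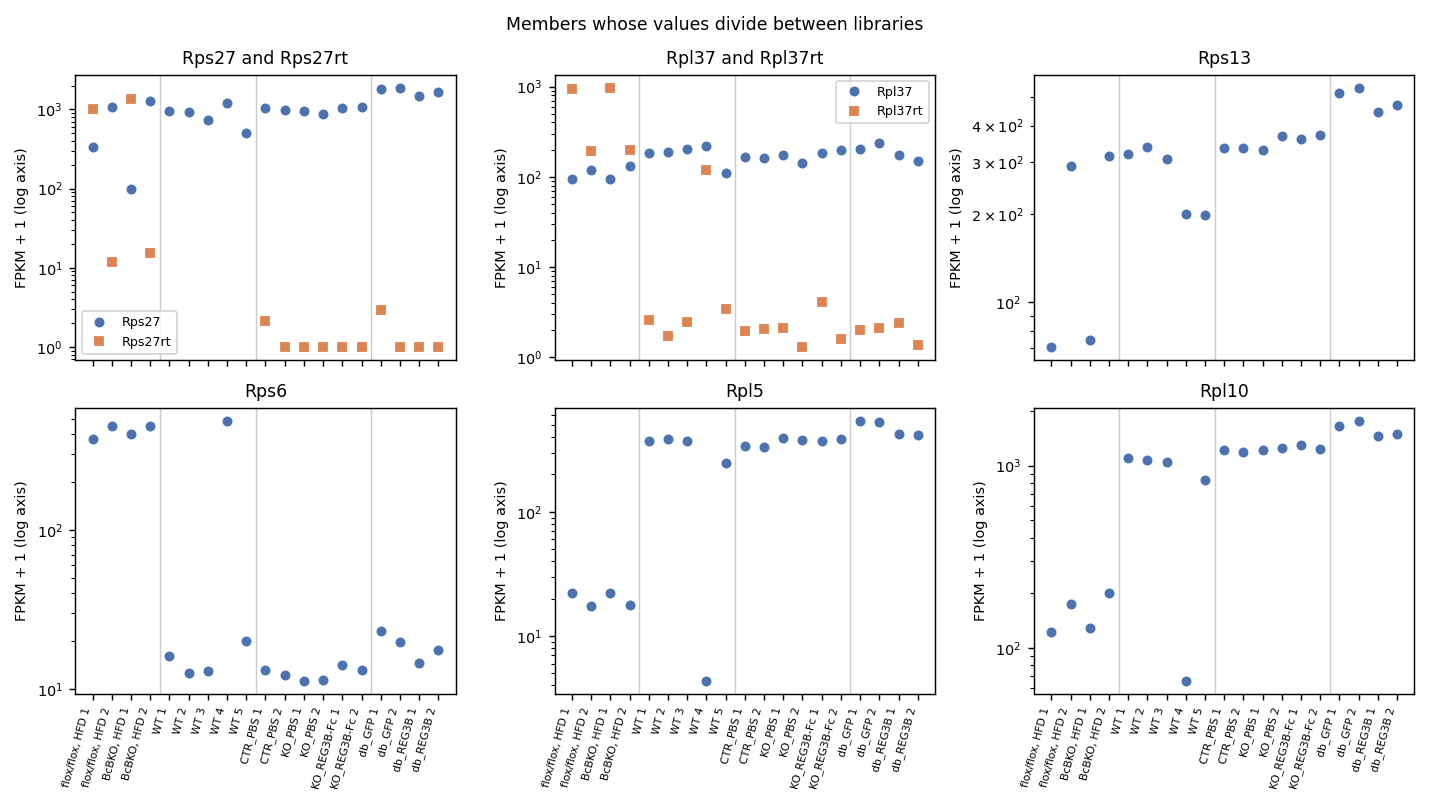
FPKM + 1 on a log axis (y) in each of the 19 libraries (x) for Rps27 with Rps27rt, Rpl37 with Rpl37rt, Rps13, Rps6, Rpl5 and Rpl10, 1 point per library and gene. Grey lines divide the HFD, WT, PBS and db tables. Rps27rt lies above Rps27 in both replicate 1 libraries on HFD, and Rps6 is high on HFD and in WT replicate 4.

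**Figure D3:**
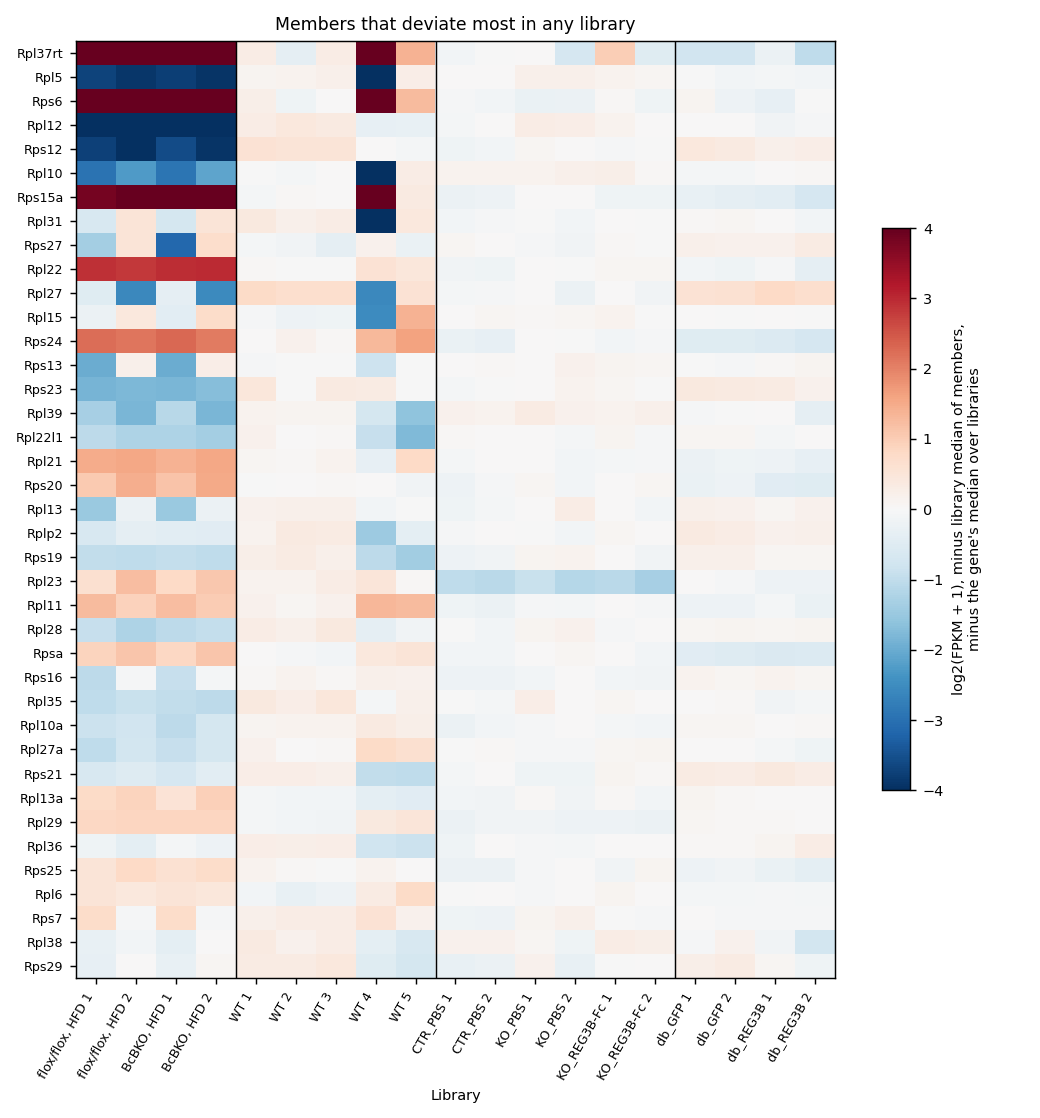
Heat map of 39 of the 40 members with the largest deviation in any library (rows) over 19 libraries (columns). Colour is log2(FPKM + 1) minus the library's median member and minus the gene's median over libraries, saturating at 4 log2 units, with black lines between tables. HFD libraries and WT replicate 4 hold the darkest cells, and the PBS and db columns are pale. PBS and db libraries are the majority behind each gene's median, so the centring itself draws their columns toward pale.

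The size of these divisions was set against the shared sequence. Between replicate 1 and replicate 2 on HFD, averaged over genotypes and centred on the median member, 7 of 31 members whose every 50-base stretch recurred elsewhere differed by over 2-fold. None of 39 members that shared 50 to under 100%, and none of 13 that shared under 50%, did so. For WT replicate 4 against replicates 1 to 3 the counts were 7 of 30, 4 of 39 and 1 of 13, and those over 4-fold were 6, 1 and 0. For WT replicate 5 the counts over 2-fold were 3 of 30, 6 of 39 and 1 of 13, with 0 over 4-fold in each class, so members that shared every stretch did not stand apart there. Rps15a was the member over 4-fold with less than full sharing (84.2%). Rps6 shared every stretch with Rps6-ps4, Rpl5 with Gm15500 and Rpl10 with Rpl10-ps3. Values of these copies were not analysed here. Rpl37rt and Rpl32l were left out of this count for want of an annotated coding sequence.

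**Figure D4:**
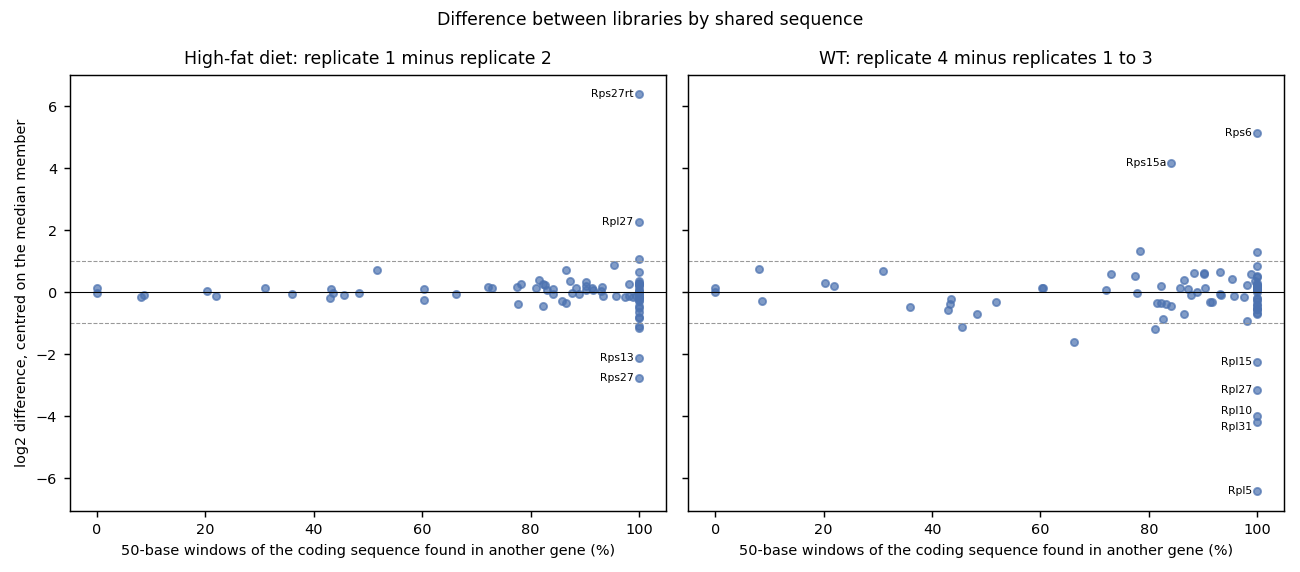
Log2 difference between libraries, centred on the median member (y axis), against the percent of a member's 50-base coding stretches found unchanged in another gene (x axis), 1 point per member, for HFD replicate 1 minus 2 (left) and WT replicate 4 minus replicates 1 to 3 (right). Dashed lines mark 2-fold and names are given beyond 4-fold. On the left every point beyond 2-fold lies at full sharing, and on the right Rps15a at 84.2% is also far out.

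Whether the ablation alters these genes on HFD was asked of all 84 members. No member passed limma's test in BcBKO against flox/flox in either direction, nor did any have an unadjusted p under 0.05, beside 427 of all genes. Of all 11560 genes tested, 0.00865% passed as higher and 0% as lower. The authors' deposited table likewise calls 0 of 84 members, against 0.109% of its genes higher and 0.0546% lower. The median member differed by 0.072 on the log2 scale, beside 0.080 for the median of all genes, and by -0.020 after median scaling, which sets the median gene to about 0. Rplp0, of the stalk that recruits elongation factors, measured 525 and 461 FPKM in flox/flox, with 576 and 519 FPKM in BcBKO (log2 difference 0.15, SE 0.167, limma adjusted p = 1.00). Its groups overlapped. Both BcBKO libraries lay above both flox/flox libraries for 14 members and below them for 2, beside 25.3 and 4.85% of all genes, so 14 of 84 was no larger a share than the background. The extremes were Rps27 (-0.74, SE 1.29), the member divided by replicate number, and Rps12 (0.41, SE 0.350). Rps12 measured 31.8 and 16.1 FPKM against 36.5 and 25.4 FPKM. When same-numbered libraries were set side by side, the median member differed by 0.079 (replicate 1) and 0.081 (replicate 2), with robust SDs of 0.082 and 0.072, against 0.27 and 0.28 between replicates of 1 genotype. Same-numbered libraries were thus closer than libraries of 1 group. With replicate number added to the model as a block, 0 members passed limma's test. An unadjusted p under 0.05 was then found for 2 members, beside 1681 of all 11560 genes.

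In KO_PBS against CTR_PBS the ribosomal protein genes rose relative to the other genes, most of which were lower in FPKM. On the deposited scale limma called 34 of 84 members higher and 8 lower, beside 8.66% of all 11788 genes higher and 81.5% lower. The median member differed by 0.087 and the median gene by -0.44 on the log2 scale. After median scaling 81 members were higher and 0 lower, beside 24.6% and 20% of all genes, and the median member differed by 0.61. The authors' deposited table calls 79 of 87 members higher and 0 lower, beside 14.7 and 11.2% of its genes. Values below are FPKM as deposited, and the differences are after median scaling unless said otherwise.

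Rpl12 measured 627 and 652 FPKM in CTR_PBS and 818 and 783 FPKM in KO_PBS (log2 difference 0.85, SE 0.0399, limma adjusted p = 1.12e-06). Rps19, the gene most often mutated in Diamond-Blackfan anaemia, measured 359 and 371 FPKM, against 447 and 450.2 FPKM (log2 difference 0.82, SE 0.0379, limma adjusted p = 1.03e-06). For both genes the KO_PBS libraries lay above both CTR_PBS libraries already as deposited. Rplp1, another stalk protein, measured 601 and 634 FPKM, against 752 and 730.1 FPKM (log2 difference 0.79, SE 0.0475, limma adjusted p = 4.56e-06), and Rplp0 differed by 0.69 and Rplp2 by 0.48, both past limma's threshold. On the deposited scale Rplp2 was at -0.045 and did not pass (limma adjusted p = 0.344). Rpl5 measured 339 and 331 FPKM, against 392 and 379.5 FPKM (log2 difference 0.73, SE 0.0407, limma adjusted p = 3.00e-06) and its partner Rpl11 differed by 0.65. Rpl5, Rpl11, Rpsa and Rps3 were called higher on both scales, and Rps27a, which encodes a fusion of ubiquitin with a small subunit protein, after scaling only.

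The members that followed the median gene were few. Rps19bp1 measured 8.96 and 9.07 FPKM in CTR_PBS and 6.21 and 7.01 FPKM in KO_PBS (log2 difference as deposited -0.40, limma adjusted p = 4.51e-04, and 0.071 after scaling, limma adjusted p = 0.494). Rpl36al, a paralog of Rpl36a, measured 310.0 and 304 FPKM, against 266 and 206 FPKM (-0.39 as deposited and 0.14 after scaling, limma adjusted p = 0.00456 and 0.305). Both were called lower as deposited and neither passed after scaling. Rpl37rt, at no more than 1.11 FPKM here, was the other member that did not pass after scaling. There were 6 members called lower as deposited and higher after scaling, Rps2, chosen for naming after its values were seen, and Rpl38, Rpl7l1, Rps6, Rps27 and Rps21, with scaled differences for the last 5 of 0.31, 0.30, 0.32, 0.39 and 0.40. How many of all genes turned likewise was not counted, where 81.5% were called lower as deposited and 24.6% higher after scaling. Rps6 measured 12.3 and 11.3 FPKM in CTR_PBS and 10.3 and 10.4 FPKM in KO_PBS. Other transcripts moved with the comparison: all 38 tested acinar markers and all 18 tested immune markers were called higher on both scales, and of 12 beta cell markers 12 were called lower as deposited and 9 after scaling. Of 9 markers of other islet hormone cells, 2 were called higher and 7 lower as deposited, and 7 higher after scaling. The summed share of the 20 immune markers was 0.0116 and 0.0106% in CTR_PBS and 0.0373 and 0.0371% in KO_PBS, with Ms4a1 listed at 0 in both CTR_PBS libraries. The part of these transcripts in the ribosomal protein result was not tested.

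**Figure D5:**
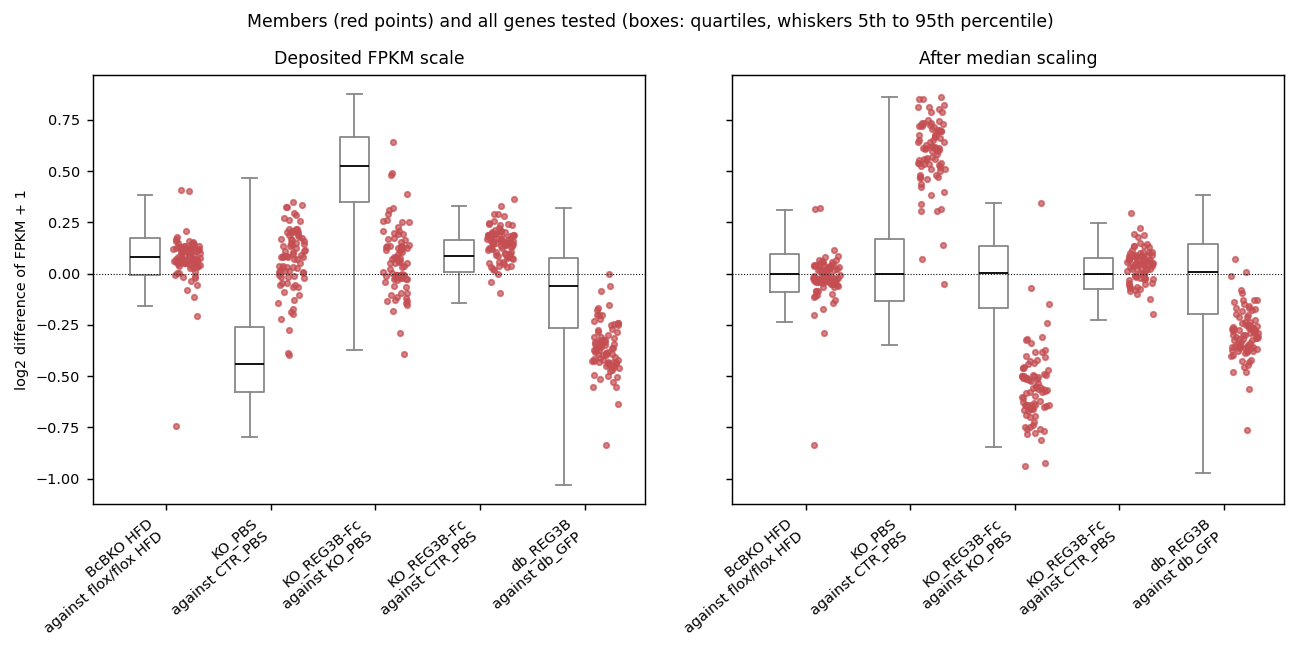
Log2 difference of FPKM + 1 (y axis) in each of 5 comparisons (x axis), as deposited (left) and after median scaling (right). Red points are members and boxes are all genes tested (quartiles, with whiskers from the 5th to the 95th percentile). After scaling most members lie above the box of all genes for KO_PBS against CTR_PBS (median 0.61) and below it for KO_REG3B-Fc against KO_PBS (median -0.56) and db_REG3B against db_GFP (median -0.29).

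The next comparison asked what REG3B-Fc altered in KO islets, and it shares the KO_PBS libraries with the one above, so the values of the 2 comparisons are not independent. On the deposited scale 31 of 84 members were called higher and 8 lower in KO_REG3B-Fc against KO_PBS by limma, beside 86.2 and 6.97% of all genes. The median member differed by 0.069 and the median gene by 0.53. After median scaling 0 members were higher and 81 lower, beside 20.1 and 24.7% of all genes, with a median of -0.56. The authors' deposited table calls 76 of 86 members lower and 0 higher, beside 13.9 and 10.2% of its genes. Rpl32, of the large subunit, measured 785 and 724 FPKM in KO_PBS, with 638 and 693 FPKM in KO_REG3B-Fc (log2 difference -0.81, SE 0.0560, limma adjusted p = 1.03e-05). Its groups did not overlap as deposited, KO_REG3B-Fc being lower. Rps26 differed by -0.78 and the low-level Rpl32l by -0.94, from 7.19 and 6.88 to 5.69 and 4.60 FPKM.

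Many members had close FPKM in both groups while the median gene was higher. Rplp0 measured 500.2 and 481 FPKM in KO_PBS, with 496 and 479 FPKM in KO_REG3B-Fc, a difference of -0.0077 as deposited (limma adjusted p = 0.860) and -0.64 after scaling (limma adjusted p = 5.21e-06). Rps3, which lines the entry for messenger RNA, measured 208 and 199.9 FPKM, against 205 and 202 FPKM. Rpl38, known for its role in the translation of Hox messenger RNAs, measured 831 and 687 FPKM, against 981 and 999 FPKM, higher as deposited (0.39) and lower after scaling (-0.24), past limma's threshold both times. The same turn held for 29 members in all, among them Rps21, Rps27, Rps6, Rps27a, Rplp2, Rpl11, Rpl41, Rpl7l1 and Rpl22l1. How many of all genes made this turn was not counted, where 86.2% were called higher as deposited and 24.7% lower after scaling. Rpl36al, Rps19bp1 and Rpl37rt did not pass after scaling, at -0.15, -0.071 and 0.35 (limma adjusted p = 0.271, 0.490 and 0.481). These are the same 3 members that did not pass after scaling in KO_PBS against CTR_PBS. All 38 acinar markers and all 18 immune markers tested were called lower after scaling, and the immune share was 0.0127 and 0.0126% in KO_REG3B-Fc. Other islet hormone markers went the other way, with 9 of 9 called higher as deposited and 8 after scaling, as did beta cell markers, with 12 of 12 and 9. KO_PBS libraries had a hormone marker share of 0.757 and 0.7997%, where those given REG3B-Fc had 1.85 and 1.92%. Their part in this result was not tested either.

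KO_REG3B-Fc against CTR_PBS, which shares libraries with both comparisons above, gave smaller differences. As deposited 32 members were called higher and 0 lower by limma, beside 16.8 and 2.87% of all genes. After median scaling 1 member was higher and 0 lower, beside 5.47 and 5.3%, with 8 members at an unadjusted p under 0.05. The member that passed was Rpl22, at 27.6 and 26.5 FPKM in CTR_PBS and 32.3 and 34.4 FPKM in KO_REG3B-Fc (log2 difference 0.19, SE 0.0486, limma adjusted p = 0.0431). The median member differed by 0.15 and the median gene by 0.086 as deposited. No member passed after scaling without CTR_PBS replicate 1, CTR_PBS replicate 2 or KO_REG3B-Fc replicate 2 (4, 8 and 4 at an unadjusted p under 0.05), and 4 passed without KO_REG3B-Fc replicate 1. The count as deposited depended on each of the 4 libraries. It was lower whenever 1 of them was left out, and so was the share of all genes called higher. Without CTR_PBS replicate 1 the members' share was no larger than that of all genes. The median member then differed by 0.14 (median gene 0.096), and by 0.17 (0.076) without CTR_PBS replicate 2. Without KO_REG3B-Fc replicate 1 the median member differed by 0.17 (median gene 0.072), and without KO_REG3B-Fc replicate 2 by 0.12 (0.10). Rplp1 measured 601 and 634 FPKM, against 715 and 745 FPKM (log2 difference 0.24, SE 0.0423, limma adjusted p = 0.00515 as deposited, 0.14 after scaling). Rpl11 differed by 0.25 as deposited and 0.15 after scaling (limma adjusted p = 0.00523 and 0.0707). Markers of other cells moved here too. Other islet hormone markers were called higher in 9 of 9 cases on both scales, with a share of 0.862 and 0.853% in CTR_PBS and 1.85 and 1.92% in KO_REG3B-Fc. Acinar markers were called lower in 21 of 38 cases as deposited and 24 after scaling, and REG genes in 6 of 6 on both scales. Their part in the members' values was not tested.

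In db_REG3B against db_GFP the ribosomal protein genes fell together. Of 84 members 79 were called lower and 0 higher by limma, beside 30.8 and 12.2% of all 12506 genes, and after median scaling 78 were lower, beside 25.6%. The median member differed by -0.37 and the median gene by -0.059 on the log2 scale. The authors' deposited table calls 56 of 86 members lower and 0 higher, beside 15.1 and 12.3% of its genes. At an equal sum without insulin, acinar and REG genes, 60 members were lower and 2 (Rpl36al and Rps27l) higher, beside 19.8 and 38.4% of all genes, so most members were called lower on each scale while the balance of all genes was not the same.

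Rplp2 measured 1100.4 and 1112 FPKM in db_GFP and 801 and 817 FPKM in db_REG3B (log2 difference -0.45, SE 0.0359, limma adjusted p = 9.59e-06). Rpl36a measured 423 and 434 FPKM, against 299 and 285 FPKM (log2 difference -0.55, SE 0.0407, limma adjusted p = 5.79e-06). Rps20, of the small subunit, measured 60.1 and 66.0 FPKM, against 43.2 and 42.0 FPKM (log2 difference -0.55, SE 0.0552, limma adjusted p = 4.33e-05). In these members both db_REG3B libraries lay below both db_GFP libraries, as they did for 81 of 84 members, beside 46.2% of all genes. Rpl38 had the lowest difference, with 1228 and 1511 FPKM, against 944 and 618 FPKM (log2 difference -0.83, SE 0.164, limma adjusted p = 0.00282), and also the widest gap between its db_REG3B libraries. Rps29 followed at -0.64 and Rps15a at -0.53. The highest members fell too. Rpl41 measured 2312 and 2454 FPKM, against 2066 and 2023 FPKM (log2 difference -0.22, SE 0.0415, limma adjusted p = 0.00222), and Rps27 1811 and 1886 FPKM, against 1488 and 1644 FPKM (log2 difference -0.24, SE 0.0509, limma adjusted p = 0.00424). Rps21, Rpl10 and Rps14 fell by 0.28, 0.20 and 0.23 on the log2 scale. Rplp0, Rplp1, Rpsa, Rps6, Rps27a, Rpl5, Rpl11 and Rps3 were each called lower on both scales, between -0.25 and -0.42 as deposited.

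The members that did not pass here were mostly paralogs. Rps27l, a paralog of Rps27 induced by p53, measured 210.4 and 215 FPKM in db_GFP and 226 and 199.9 FPKM in db_REG3B (log2 difference -0.00078, limma adjusted p = 0.993). Rpl36al measured 588 and 609 FPKM, against 560.2 and 569 FPKM (-0.083, limma adjusted p = 0.108), where its counterpart Rpl36a was among the lowest. Rpl7l1 differed by -0.062 (limma adjusted p = 0.415), Rpl36 by -0.15 (limma adjusted p = 0.0585) and the near-absent Rpl37rt by -0.18. The difference between a paralog and its counterpart was not tested. Rpl22l1, in contrast, measured 333 and 356 FPKM, against 252 and 265 FPKM and was called lower (-0.41, limma adjusted p = 9.42e-05), as was Rps19bp1 (-0.25, limma adjusted p = 0.00931). Markers of other cells moved with this comparison: limma called 12 of 14 immune, 10 of 10 endothelial and 9 of 10 stellate, 22 of 29 acinar and 7 of 9 other islet hormone markers lower and 10 of 12 beta cell markers higher. The stellate share was 0.175 and 0.172% in db_GFP and 0.0262 and 0.0269% in db_REG3B, the immune share 0.0764 and 0.0767% and 0.0294 and 0.0292%, and that of other islet hormone cells 10.4 and 10.4% and 5.07 and 5.03%. Ms4a1 and Cd3d were among the markers listed at 0 in db_GFP, and none of the stellate or endothelial markers was. Their part in the ribosomal protein result was not tested.

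Genes around the ribosome were read from lists chosen for their roles. Translation factors and other genes whose messenger RNAs are known to begin alike (22 tested) were called lower in 19 cases and higher in 0 in db_REG3B against db_GFP, with a median of -0.28, beside 30.8 and 12.2% of all genes, and 15 were called lower after scaling, beside 25.6%. Tpt1, a growth-related gene regulated like the ribosomal proteins, measured 2272 and 2307 FPKM in db_GFP and 1581 and 1528 FPKM in db_REG3B (log2 difference -0.56, SE 0.0375, limma adjusted p = 3.24e-06). Rack1, a scaffold on the small subunit, measured 550.2 and 560.3 FPKM, against 409 and 416 FPKM (log2 difference -0.43, SE 0.0366, limma adjusted p = 1.52e-05), and the groups of both genes did not overlap. In KO_PBS against CTR_PBS 21 of these genes were called higher and 0 lower after scaling (median 0.45), beside 24.6 and 20% of all genes, and 3 and 10 as deposited, beside 8.66 and 81.5%. In KO_REG3B-Fc against KO_PBS 0 were higher and 20 lower after scaling (median -0.49), beside 20.1 and 24.7%, and 17 and 2 as deposited, beside 86.2 and 6.97%. Eef2, the factor that moves the ribosome along, differed by 0.53 and -0.54 after scaling in these comparisons, which share KO_PBS. As deposited it hardly differed between CTR_PBS (603 and 607 FPKM) and KO_PBS (602 and 607 FPKM). In KO_REG3B-Fc it was higher as deposited, at 653 and 640 FPKM.

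Ribosome biogenesis genes, which make and fold the subunits in the nucleolus, were called in both directions in db_REG3B against db_GFP. There 4 of 38 were higher and 5 lower, with a median of 0.014, beside 12.2 and 30.8% of all genes, and after scaling 10 were higher and 4 lower, beside 20.7 and 25.6%. Nhp2, a protein of box H/ACA particles, was lower (log2 difference -0.36, SE 0.0712, limma adjusted p = 0.00276) and Tsr1, a factor of small subunit maturation, higher (log2 difference 0.26, SE 0.0571, limma adjusted p = 0.00552). In KO_PBS against CTR_PBS 10 were higher and 6 lower after scaling (median -0.010), with Myc, a transcription factor that drives ribosome production, among the higher (log2 difference 0.81, SE 0.0629, limma adjusted p = 1.96e-05), and as deposited 2 were higher and 35 lower. These counts stand beside 24.6 and 20% of all genes after scaling and 8.66 and 81.5% as deposited, and nothing is read from them about the list. In KO_REG3B-Fc against KO_PBS 0 were higher and 13 lower after scaling, with Myc at -0.91, and 34 higher and 2 lower as deposited, beside 20.1 and 24.7%, and 86.2 and 6.97%, of all genes. Genes of the mTOR and S6 kinase axis split in direction. In db_REG3B against db_GFP 6 of 22 were higher and 3 lower (9 and 2 after scaling), beside the shares of all genes given for biogenesis, with Pdcd4, an inhibitor of the initiation helicase, at 94.0 and 93.1 FPKM in db_GFP and 129 and 137 FPKM in db_REG3B (log2 difference 0.50, SE 0.0451, limma adjusted p = 2.10e-05). The repressor Eif4ebp1 was higher (log2 difference 0.40, SE 0.0615, limma adjusted p = 6.61e-04) and the kinase Rps6ka1 lower (log2 difference -0.76, SE 0.0848, limma adjusted p = 9.04e-05). After scaling, KO_PBS against CTR_PBS had 8 higher and 5 lower, and KO_REG3B-Fc against KO_PBS 5 higher and 8 lower, where as deposited the counts were 2 and 17, and 19 and 2. Beside the same shares of all genes as above, nothing is read from these counts about the axis. Eif4ebp1 differed by 0.72 and -0.96 in these comparisons. On HFD 0 genes of the 3 lists passed limma's test, and 1 translation, 1 biogenesis and 0 mTOR genes had an unadjusted p under 0.05. In KO_REG3B-Fc against CTR_PBS as deposited, 6 genes of the translation list, Npm1, Fau, Eif3m and Eif4b among them, and 5 mTOR genes were called higher, beside 16.8% of all genes, and 2 biogenesis genes, Nop10 and Ltv1, lower, beside 2.87%. After scaling 0 translation genes passed limma's test, with 1 at an unadjusted p under 0.05, while 1 mTOR gene (Ddit4) was higher and 2 (Eif4ebp1 and Sesn2) lower, and Nop10 and Ltv1 were again lower, beside 5.47 and 5.3% of all genes.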

How the data were processed

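Messenger RNA of mouse islets was measured in 19 libraries of 8 groups, taken from the sample titles, and 0 value columns had no known sample. The authors deposited FPKM for each library, with TPM beside them on HFD, and their own log2 fold changes with adjusted p-values, which headers of the PBS and db files credit to DESeq2. The submitters' processing notes name GRCm38.p6, and the aligner and counter are not given in the sources used here, so depth is unknown. Rows were 1 per Entrez identifier, and 4 repeated rows of the WT table were dropped (88 to 84 members).

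From the deposited values, limma 3.58.1 (R 4.3.3, trend) was fitted to log2(FPKM + 1) for genes of at least 1 FPKM in at least 2 libraries, all groups of a table together, with two-sided p-values adjusted by Benjamini-Hochberg over every gene tested and called under 0.05. The log2 differences understate changes of low genes. Median scaling divides a library by its median ratio to the geometric mean library. Shares were compared by exact permutation. Tests were made within a table only, and the code was tested on simulated data. Sequences come from RefSeq and GENCODE vM21. Members, gene lists and tests were chosen with earlier results of these data known. Named genes were Rplp0, Rplp1, Rplp2, Rpsa, Rps6, Rps27a, Rpl5, Rpl11, Rps3 and paralogs, the 5 highest members of a table, the 5 highest and 5 lowest differences, and up to 4 passing genes of each list. Rps13 and the members described for dividing libraries were chosen after their values were seen. Some genes that this rule names are not reported here. Alternatives were the pseudocount 0.1, no filter, other scalings, a replicate block, only the groups compared and leaving out each library.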

Additional observations from a re-analysis of the deposited data

Results flagged for a closer look

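Within WT, the only group with enough libraries for an outlier test, 1 library lay far from the other 4 in the following values, by Dixon's ratio of its gap to the range at the 95% level. Chance flags about 1 in 20 such groups, and 21 of 84 members (25%) were flagged, beside 5.56% of 11272 other genes of at least 1 FPKM in at least 2 libraries and 11.2% of 258 other genes with a mean of at least 100 FPKM. The difference between these shares was not tested. The ribosomal protein share of 2.23% in replicate 5 was low beside 2.98 to 3.15% in the others, and so was Rplp1 at 379 FPKM. WT replicate 4 was high for Rpsa at 439.6 FPKM, Rps6 at 480.4 FPKM, Rpl11 at 569 FPKM, Rps15a at 334 FPKM and Rpl37rt at 119 FPKM. The same library was low for Rpl10, at 65.0 FPKM. Values are given for flagged members that are always named or were over 4-fold from replicates 1 to 3 in replicate 4. Replicate 5 was also the flagged extreme for Rpl26, Rps18, Rpl13a, Rps10, Rpl14, Rps20, Rpl41, Rpl34 and Rpl17. Replicate 4 was so for Rpl21, Rpl22, Rpl29, Rpl27a and Rps26. Replicate 4 also held the smallest acinar share of the group (7.13%, against 33.0 to 54.2% in the others). The cause was not tested.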

How the results depend on the processing

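The scale changed the counts of the PBS table. Beside 42 members called in KO_PBS against CTR_PBS, 81 were called after median scaling and 80 at an equal sum without insulin, acinar and REG genes, and the members' median went to 0.61 and 0.44. Of all 11742 genes at that equal sum, 1759 were called higher and 5669 lower. For KO_REG3B-Fc against KO_PBS, 39 became 81 and 79, now lower, with medians of -0.56 and -0.42. There 5038 of 11742 genes were called higher and 1880 lower at the equal sum. For KO_REG3B-Fc against CTR_PBS, 32 became 1 and 0 (medians 0.048 and 0.018), 16 without a filter and 49 with only the 2 groups fitted. All genes called higher went from 1977 of 11788 to 645 of 11788 and 511 of 11742 on these scales. They were 1389 of 17313 without a filter and 2184 of 11506 with only the 2 groups. The members' median was -0.29 and -0.18 in db_REG3B against db_GFP, where their count was within 1.5 times under each alternative. On HFD the members' median was -0.020 and 0.022.

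Without insulin, acinar and REG genes in the denominator the share differed by 3.71 points for KO_PBS against CTR_PBS, -3.58 for KO_REG3B-Fc against KO_PBS, 0.127 for KO_REG3B-Fc against CTR_PBS and -1.09 in the db table, and the WT mean was 12.9%. Without the 5 highest members these were -2.14 points in the db table and 2.51% in WT.

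Leaving out 1 library at a time gave 5 to 17 members for KO_REG3B-Fc against CTR_PBS and medians of 0.018 to 0.10 on HFD, 0.044 to 0.11, 0.12 to 0.17 and -0.39 to -0.33 for KO_PBS and KO_REG3B-Fc against CTR_PBS and the db table. The share difference of KO_REG3B-Fc against KO_PBS was -0.134 to 0.00111 points. With 1 library left, it is assumed to vary like the others.

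Named members reported after scaling were reversed as deposited in KO_PBS against CTR_PBS (Rpl22l1 -0.054, Rpl36al -0.39, Rpl38 -0.22, Rpl7l1 -0.20, Rplp2 -0.045, Rps19bp1 -0.40, Rps21 -0.13, Rps27 -0.14 and Rps6 -0.17) and in KO_REG3B-Fc against KO_PBS (Rpl10 0.038, Rpl11 0.13, Rpl22l1 0.13, Rpl36al 0.48, Rpl38 0.39, Rpl41 0.13, Rpl7l1 0.20, Rplp2 0.17, Rps19bp1 0.49, Rps21 0.32, Rps27 0.20, Rps27a 0.11 and Rps6 0.26). At an equal sum Rpsa -0.0057 was reversed in KO_REG3B-Fc against CTR_PBS, and Rpl27 0.021, Rpl36al 0.10 and Rps27l 0.19 in the db table, where Rpl36 and Rpl7l1, called on neither scale, were at 0.034 and 0.12. The cause was not tested. Merging Rps27 with Rps27rt and Rpl37 with Rpl37rt, chosen after seeing the data, kept each count of called members within 1.5 times.

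Replicate numbers do not pair libraries by the labels. Replicate differences correlated at 0.669 over genes (0.966 over members) on HFD and at -0.0499 to 0.0472 in the other tables, where members gave -0.0646 to 0.362 (PBS) and -0.462 (db). With the replicate block 0, 44, 41, 33 and 80 members were called, beside 0, 42, 39, 32 and 79. In the same order, the block called 2 of all genes higher and 2 lower, 1017 and 9619, 10147 and 834, 1965 and 345, and 1598 and 4001. The genes tested were 11560 on HFD, 11788 in the PBS table and 12506 in the db table. FPKM give no depth, so limits for low members such as Rpl39l and Rpl3l cannot be set.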
